A study of Homo sapiens and Mus musculus with 21 samples.

Results

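The genes described here are 8 protein-coding genes whose transcripts carry many sites of N6-methyladenosine (m6A) in HEK293T, an immortalised line derived from human embryonic kidney. They are SPEN, MKI67, IRS4, SON, SRRM2, CENPF, TASOR2 and ANKRD11, taken by name from among the coding genes with the most sites in the wild-type list. They are 8 of the 8272 coding genes with at least 1 site in that list. The genes were thus chosen by their number of sites in the wild-type list, and these counts are given as a description. The study knocked out PCIF1, the methyltransferase that forms m6Am, a methylated adenosine at the first transcribed base next to the mRNA cap. Sites came from miCLIP, in which an antibody against m6A is crosslinked to RNA and reverse transcription leaves substitutions beside the methylated base. For HEK293T, miCLIP was done on 1 wild-type library (WT) and on 2 libraries of PCIF1 knockout cells (KO), here called WT, KO1 and KO2. RNA levels and ribosome occupancy came from 2 WT and 3 KO input RNA libraries and from 2 WT and 3 KO libraries of ribosome-protected fragments. All of these groups were HEK293T cells, WT or PCIF1 KO, with no other treatment named in the labels. For SLAM-seq, WT and KO cells were labelled with 4-thiouridine and chased with uridine for 0, 6 or 12 h, with 1 library per genotype and time. The labels do not say whether the numbered KO libraries come from different knockout clones, or whether replicates were separate cultures, so the p-values below rest only on how far these libraries differ, and that may be technical. A pair of miCLIP libraries of mouse embryonic fibroblasts was also made, and the mouse counterparts of the 8 genes were not analysed here.

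Internal m6A is written mainly by the METTL3 and METTL14 complex, not by PCIF1, within the motif DRACH, where D is A, G or U, R is A or G, and H is A, C or U. It is known to be dense in long internal exons and around stop codons, and to mark transcripts for faster decay through YTHDF reader proteins. Several of the 8 genes are known for an unusually long coding exon, among them SPEN, MKI67, SON, SRRM2 and ANKRD11. SPEN is a very large RNA-binding transcriptional corepressor that acts in X inactivation and Notch signalling. ANKRD11 is a chromatin regulator that binds histone deacetylases, and TASOR2 is a relative of TASOR, the scaffold of the HUSH silencing complex. SON and SRRM2 are the core proteins of nuclear speckles and act in splicing. MKI67 encodes the proliferation marker Ki-67, which coats mitotic chromosomes, and CENPF is a kinetochore and nuclear matrix protein of dividing cells. IRS4 is an insulin receptor substrate, an adaptor of insulin and growth factor signalling that HEK293 cells are known to express strongly.

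The lists held 43663 sites in WT, 40768 in KO1 and 47644 in KO2, and the median number of reads at a listed position was 30, 37 and 42. Each listed site had at least 2 substituted reads. The input libraries held 4511687 to 5960674 counts, and the fragment libraries held 17665 to 124580 counts over the 785 genes of the deposited fragment table. The targeted gene PCIF1 could not be checked, since the files pair no identifier with its name, and its level was not analysed here. Of 6 fibroblast marker genes, 1 had a WT site (COL1A1, 1 site), and none of 5 blood and endothelial marker genes had a site in any of the 3 lists. IRS4 is itself a marker of the HEK293 line and had 58 to 69 sites in each list, but it was chosen for a high count. The other HEK293 markers examined had few or no sites. NEFM had 5, 0 and 0 and NEFL had 2, 0 and 3 in WT, KO1 and KO2.

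The motif at the site with the most substituted reads in WT is shown for each gene, since these are the sites on which the read counts below rest. Letters are those of the DNA strand that matches the RNA, 5′ to 3′, the capital marks the methylated adenosine, and coordinates are those of GRCh38 in the authors' lists.
SPEN, chr1:15935543, plus strand: gaAca
MKI67, chr10:128104676, minus strand: ggAca
IRS4, chrX:108733372, minus strand: ggAca
SON, chr21:33549871, plus strand: gaAct
SRRM2, chr16:2767335, plus strand: gaAct
CENPF, chr1:214647242, plus strand: gaAct
TASOR2, chr10:5749117, plus strand: ggAct
ANKRD11, chr16:89284825, minus strand: agAct
The listed coordinate is that of the fourth letter of the motif, the C that follows the adenosine. For 273 WT sites that lie inside the promoter windows of RefSeq (GRCh38.p14), all 273 windows spelled the listed motif with that letter at the listed position, as did 210 of 210 windows for KO1 and 237 of 237 for KO2.

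SPEN had the most listed sites of any coding gene in all 3 libraries, 87 in WT, 60 in KO1 and 87 in KO2. MKI67 followed in WT with 80 sites, and had 54 in KO1 and 83 in KO2. IRS4 had 69, 58 and 60 sites in the same order, SON had 57, 51 and 67, and SRRM2 had 53, 47 and 64. CENPF ranked 8th in WT with 45 sites and had 41 and 49 in the KO libraries. TASOR2 ranked 11th with 37 sites and had 42 and 40, and ANKRD11 shared rank 21 with 31 sites and had 41 and 36. The median coding gene with a site had 3 in each library. Together the 8 genes held 459, 394 and 486 sites, or 1.05%, 0.966% and 1.02% of the 3 lists.

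The KO libraries did not share a direction against WT. KO1 had fewer sites than WT in SPEN, MKI67, IRS4, SON, SRRM2 and CENPF, and more in TASOR2 and ANKRD11. KO2 had more sites than WT in MKI67, SON, SRRM2, CENPF, TASOR2 and ANKRD11, as many in SPEN, and fewer in IRS4. IRS4 was the gene with fewer sites in both KO libraries, and TASOR2 and ANKRD11 had more in both. With 1 WT library there is no replicate spread to set these differences against. The whole lists differed in the same order, with KO1 the shortest and KO2 the longest.

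The rule left out 17 coding genes that had at least the 31 WT sites of ANKRD11. The highest of them were TUG1 with 52, 46 and 53 sites (listed as coding in RefSeq and long known as a noncoding RNA), NSD1, a histone methyltransferase, with 46, 52 and 47, and KMT2D, another histone methyltransferase, with 44, 30 and 46. Just below ANKRD11 came BCOR and GEMIN4 with 30 WT sites each and ASXL1 with 29. By the summed distance between log2 site counts over the 3 libraries, TUG1 was the nearest gene outside the 8 to SPEN, MKI67, IRS4, SON and SRRM2. TUG1 had the most WT sites outside the 8, so it is nearest to the highest genes largely by its rank. Its distance was 1.81 to SPEN and 1.48 to MKI67, which is not close, and 0.32 to SRRM2. NSD1 was nearest to CENPF and JUN to ANKRD11.

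**Figure D1:**
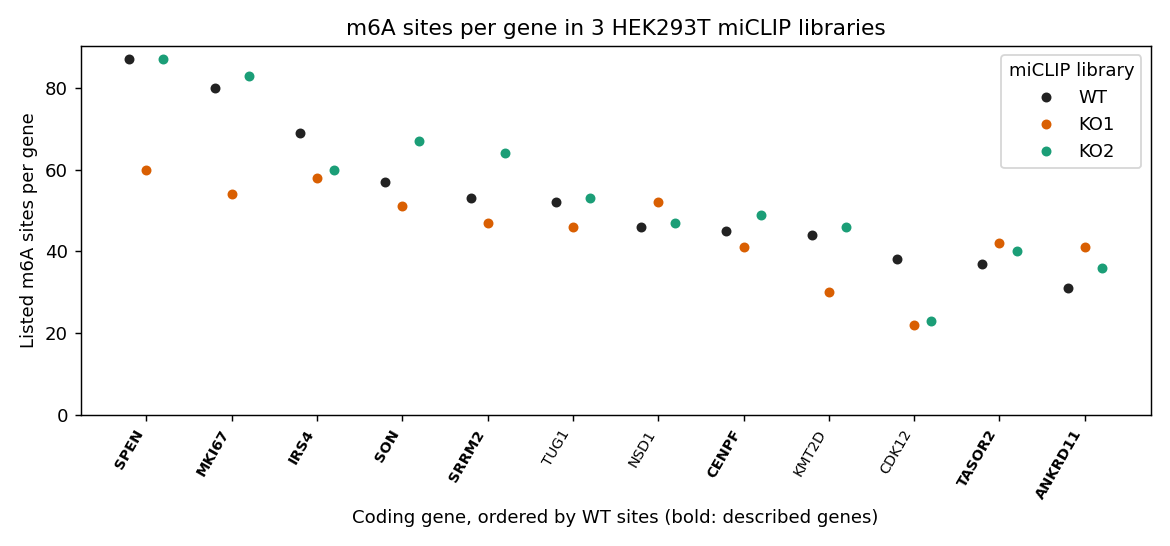
Number of listed m6A sites (y axis) in each coding gene (x axis, ordered by WT) with at least the 37 WT sites of TASOR2, and in ANKRD11; points are the WT, KO1 and KO2 libraries and bold names are the 8 genes described. SPEN is highest in each library, with 87, 60 and 87 sites, and CDK12, at 38, 22 and 23, has fewer sites in both KO libraries.

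Packing was measured by the shortest window that held 80% of a gene's sites. Over the 792 coding genes with at least 10 WT sites, the median window was 4.238 kb and the median share of the span 19.1%. Every gene described here needed a longer window than that in WT. IRS4, MKI67, CENPF and SRRM2 also needed a larger share of their span than the median. SPEN, SON, TASOR2 and ANKRD11 needed a smaller share. SPEN lies at chr1:15847707-15940456 on the plus strand and spans 92.8 kb. Its first WT site lay 25190 nt after the gene start, and 70 of its 87 WT sites lay in a window of 11476 nt (chr1:15928569-15940044), which is 12.4% of the gene. In KO2, 70 of 87 sites lay in 11615 nt, and in KO1, 48 of 60 lay in 18003 nt. The site with the most substituted reads, at chr1:15935543, had 30 of 217 reads in WT (13.8%, exact interval 9.53 to 19.1%) and 25 of 284 in KO2 (8.80%, 5.78 to 12.7%), and was not listed in KO1. The next sites, at chr1:15929435 and chr1:15939672, were listed in all 3 libraries, with 29 of 353 and 27 of 467 substituted reads in WT. All intervals here are exact Clopper-Pearson intervals at 95% and cover counting error only. Whether some reads are copies of one molecule was not examined here.

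ANKRD11, at chr16:89267630-89490561 on the minus strand, was the longest of the 8 genes at 223 kb and had its sites in the smallest part of it. Of its 31 WT sites, 25 lay within 7248 nt, 3.25% of the span, and in KO1 and KO2 the shortest windows with 80% of the sites were 7420 and 7362 nt. The first WT site lay 195605 nt after the gene start. Its most substituted site, chr16:89284825, had 11 of 118 reads in WT, 8 of 196 in KO1 and 9 of 146 in KO2. The site at chr16:89280548, with 10 of 139 reads in WT, was in neither KO list. ANKRD11 was also the gene with sites on the strand opposite to it, 1 in WT and 2 in each KO list.

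TASOR2, at chr10:5684838-5763740 on the plus strand, spans 78.9 kb, and 30 of its 37 WT sites lay within 14384 nt. A smaller window of 9575 nt held 34 of 42 sites in KO1, and 9902 nt held 32 of 40 in KO2. Its 3 most substituted sites all had the motif ggAct, the form of DRACH that METTL3 is known to prefer. The first of them, chr10:5749117, had 12 of 59 reads in WT (20.3%, 10.98 to 32.8%), 6 of 98 in KO1 (6.12%, 2.28 to 12.9%) and 19 of 99 in KO2 (19.2%, 12.0 to 28.3%). KO1 was the low library at that position, and its interval overlapped both others.

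SON, at chr21:33543038-33577481 on the plus strand, had the tightest packing in nucleotides among the genes described. Of its 57 WT sites, 46 lay within 4386 nt, 12.7% of a 34.4 kb span, and the corresponding windows were 4679 nt in KO1 and 4358 nt in KO2. The site with the most substituted reads, chr21:33549871, had 27 of 575 reads in WT, 33 of 583 in KO1 and 37 of 740 in KO2, which are shares of 4.70%, 5.66% and 5%. The site with the highest share, chr21:33550882 (ggAca), had 26 of 120 reads in WT (21.7%, 14.7 to 30.1%), 17 of 107 in KO1 (15.9%, 9.54 to 24.2%) and 19 of 181 in KO2 (10.5%, 6.44 to 15.9%). The WT share was the highest there, and its interval overlapped those of both KO libraries.

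SRRM2, at chr16:2752638-2771412 on the plus strand, spans 18.8 kb. Of its 53 WT sites, 43 lay within 4852 nt, and the windows were 5126 nt in KO1 and 5077 nt in KO2. Its 3 most substituted sites all had a GAAC core. At chr16:2767335 the substituted reads were 38 of 491 in WT, 52 of 367 in KO1 and 66 of 583 in KO2, and at chr16:2767037 they were 31 of 177, 21 of 174 and 32 of 267. The WT library was lowest at the first of these positions and highest at the second.

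MKI67, at chr10:128096659-128126423 on the minus strand, spans 29.8 kb, and 64 of its 80 WT sites lay within 10288 nt. Its 3 most substituted sites all had the motif ggAca. At chr10:128108060 the substituted reads were 20 of 85 in WT (23.5%), 14 of 36 in KO1 (38.9%) and 32 of 105 in KO2 (30.5%). At chr10:128106602 they were 20 of 86 (23.3%), 11 of 35 (31.4%) and 33 of 80 (41.25%), the highest share in the 8 genes among KO2 sites with at least 50 reads. WT was the lowest library at both positions, with intervals that overlapped the KO ones. CENPF, at chr1:214603195-214664571 on the plus strand, spans 61.4 kb and needed the longest window of the 8 in WT, with 36 of 45 sites within 17296 nt. In KO2, 40 of its 49 sites lay within 6799 nt. Its most substituted site, chr1:214647242, had 19 of 97 reads in WT, 12 of 95 in KO1 and 16 of 113 in KO2.

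IRS4, at chrX:108719946-108736563 on the minus strand, was the gene with sites along nearly its whole 16.6 kb. Its first WT site lay 434 nt and its last 16369 nt after the gene start, and 80% of its WT sites needed 12076 nt, or 72.7% of the span. The median WT site lay 19.6% of the way along the gene, against 79.8% for the median of the 792 coding genes with at least 10 WT sites. IRS4 was also the deepest, with a median of 287 reads per WT site against 44 to 148 in the other 7 genes. Its site at chrX:108733372 (ggAca) had 198 of 1463 substituted reads in WT, 122 of 949 in KO1 and 211 of 1456 in KO2, which are shares of 13.5% (11.8 to 15.4%), 12.9% (10.8 to 15.2%) and 14.5% (12.7 to 16.4%). The 3 libraries lay within each other's intervals at this position. The genes' reference spans come from RefSeq, and exons, introns and UTRs were not used here, so distances are genomic and include introns.

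**Figure D2:**
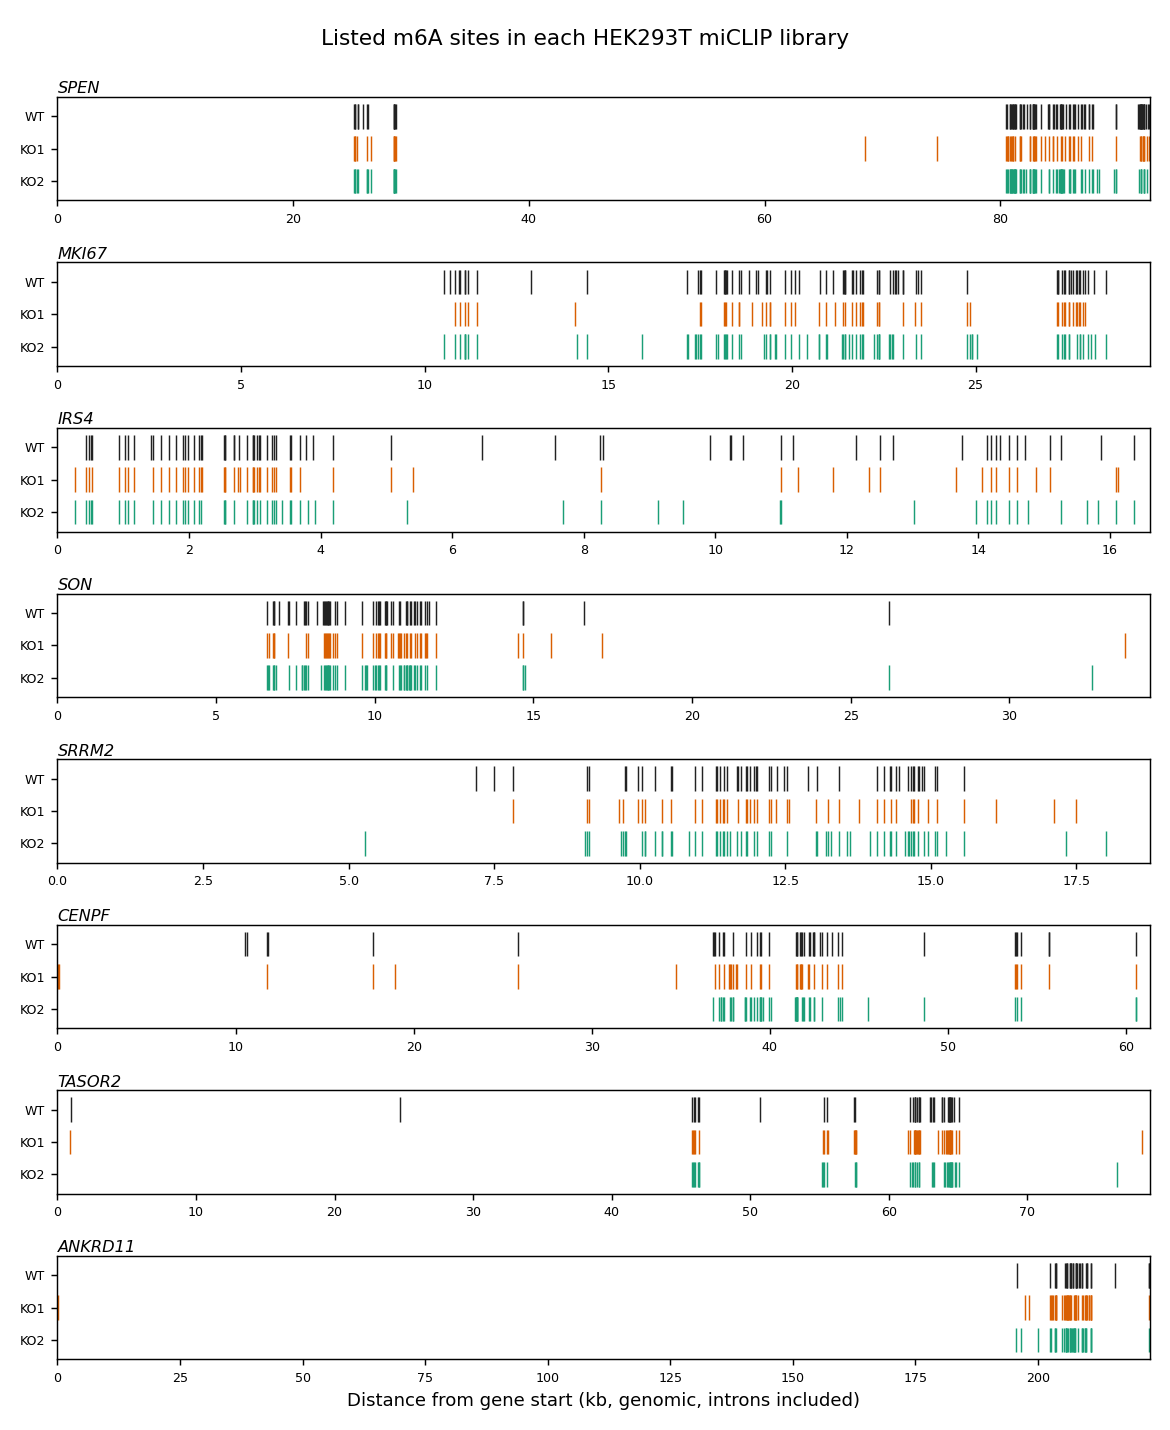
Each tick is a listed m6A site at its genomic distance from the gene start (x axis, kb, a scale per gene, introns included), in the WT, KO1 and KO2 libraries (rows). Sites of ANKRD11 sit in the last part of a 223 kb gene, those of SON in a block of about 4386 nt, and those of IRS4 along the whole gene, and the 3 rows of a gene share their blocks.

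SON carried a regular array of sites. Its union of 3 lists held 11 sites with the same 5 letters at distances that are exact multiples of 30 nt, from chr21:33551427 to chr21:33551847, a stretch of 421 nt. The first 8 of them followed each other at exactly 30 nt, up to chr21:33551637. No other listed site lay inside the stretch, and these 11 were among the 12 SON sites with this motif. SON is known to contain blocks of short tandem repeats in its protein sequence. The motif is printed for 3 members of the array.
SON array, chr21:33551427: ggAct
SON array, chr21:33551487: ggAct
SON array, chr21:33551847: ggAct
WT listed 10 of the 11 sites, KO1 10 and KO2 all 11. The pooled substituted share over the listed sites was 4.94% in WT (108 of 2186 reads, 4.07 to 5.93%), 6.07% in KO1 (118 of 1945, 5.05 to 7.22%) and 3.64% in KO2 (109 of 2994, 3.0 to 4.38%). KO1 and KO2 differed beyond their counting intervals and WT lay between them, so the spread between the KO libraries was larger than the distance of either from WT. Single sites ran from 2.61 to 7.21% in WT and from 4.52 to 7.73% in KO1, and from 1.98 to 5.77% in KO2.

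Over all pairs of SON sites at most 300 nt apart, 40 of 170 in WT (23.5%), 43 of 143 in KO1 (30.1%) and 53 of 241 in KO2 (22.0%) lay at a multiple of 30 nt. In the other coding genes with at least 10 sites the shares were 3.49%, 3.75% and 3.56%, and an even spread over distances would give 3.33%. The period was taken from the SON array after its values were seen, and the other genes were not searched for periods of their own. Among other genes with at least 50 such pairs, IRF2BP2 had the highest share of multiples of 30 nt, with 10%, 11.1% and 12%. In the other 7 genes described here the share was 0 to 7.69%. How the authors' aligner placed reads among near-identical repeat copies is not given in the sources used here, and its part in this pattern was not tested.

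**Figure D3:**
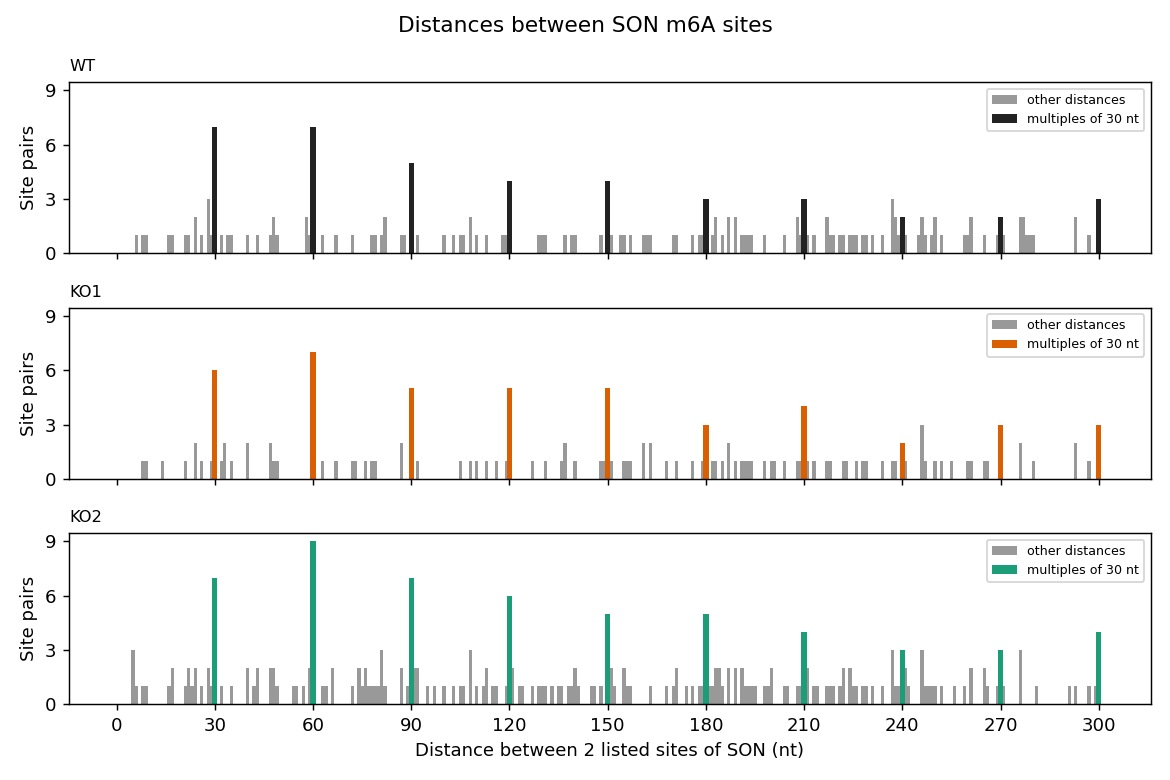
Number of pairs of SON sites (y axis) at each distance up to 300 nt (x axis) in WT, KO1 and KO2; coloured bars mark multiples of 30 nt. The bars at 30 and 60 nt hold 7 and 7 pairs in WT, 6 and 7 in KO1, and 7 and 9 in KO2.

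MKI67 showed a longer period. Ki-67 is known to contain a row of long tandem repeats encoded in its long exon. The smallest distance shared by at least 3 pairs of MKI67 sites of the same motif was 366 nt, the length of 122 codons, and 3 pairs of the union had it, while 4 pairs each lay 726 and 732 nt apart. Distances of 717, 1098 and 1458 nt were shared by 3 pairs each, and 717 nt is not within 6 nt of a multiple of 366 nt. The period of 366 nt was chosen after the values were seen. In the union of the lists, 6 ggAca sites lay in a row over 2923 nt with steps of 366, 726, 732, 366 and 732 nt. The row was picked by eye from the 15 ggAca sites of the gene. The most substituted of these in WT, at chr10:128104676, lies outside it.
MKI67 repeat, chr10:128108060: ggAca
MKI67 repeat, chr10:128106602: ggAca
MKI67 repeat, chr10:128105504: ggAca
Within that row the substituted shares differed widely although the motif was the same. The sites at chr10:128108060 and chr10:128106602 had the 23.3 to 41.25% given above, while chr10:128105504 had 3 of 85 reads in WT (3.53%, interval not overlapping either), 4 of 60 in KO1 (6.67%) and 7 of 116 in KO2 (6.03%). The site at chr10:128106236 had 4 of 80 reads in WT and 5 of 85 in KO2, and was not listed in KO1. Among pairs of MKI67 sites of the same motif at most 1500 nt apart, 16 of 79 in WT (20.3%), 6 of 28 in KO1 (21.4%) and 16 of 83 in KO2 (19.3%) lay within 6 nt of a multiple of 366 nt. The shares in other coding genes with at least 10 sites were 2.86%, 2.81% and 2.86%, and in the other 7 genes described here they ran from 0 to 7.14%. The period came from these same MKI67 pairs, so a higher share in MKI67 is partly set by the choice. The allowance of 6 nt is just wide enough to take in the distance of 726 nt. Other genes were not searched for periods of their own.

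Neighbouring sites lay close together in most of the 8 genes. The median distance between neighbouring WT sites was 61.5 nt in SON, 70 nt in SRRM2, 78 nt in SPEN, 84 nt in MKI67, 108.5 nt in IRS4, 114.5 nt in TASOR2, 197 nt in ANKRD11 and 218.5 nt in CENPF. The median over the 792 coding genes with at least 10 WT sites was 146.75 nt, so in WT ANKRD11 and CENPF had wider gaps than that median and the other 6 genes had narrower ones. In KO1 the gap was 256.5 nt in CENPF, 193.5 nt in ANKRD11 and 153 nt in SPEN, wider than the median of 138 nt, and in KO2 the CENPF gap was 96 nt, narrower than the median of 129.5 nt. MKI67, IRS4, SON, SRRM2 and TASOR2 had narrower gaps than the median in all 3 libraries. Since the genes were chosen for their number of sites, narrow gaps are partly set by the choice. The densest 1000 nt of a gene held 17 WT sites in IRS4 and in MKI67, 16 in SPEN and in SRRM2, 15 in SON, 11 in CENPF and in TASOR2, and 6 in ANKRD11, while the median gene with at least 10 sites had 7. JUN, a short gene outside the 8, had the densest 1000 nt in each library, with 20 sites in WT, 19 in KO1 and 21 in KO2. ANKRD11 thus had many sites in all and a density near that of the median gene, with 8 in its densest 1000 nt in both KO1 and KO2.

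Many of the sites were listed again in the KO libraries. Of the 459 WT sites in the 8 genes, 269 (58.6%, 53.9 to 63.2%) were listed in KO1 and 307 (66.9%, 62.4 to 71.2%) in KO2. In the other coding genes the shares were 38.1% and 43.3%. The reverse direction gave 68.3% of KO1 sites and 63.2% of KO2 sites listed in WT. Between the KO libraries, 67.8% of KO1 sites were listed in KO2 and 54.9% of KO2 sites in KO1. Of 722 positions in the union, 226 (31.3%) were in all 3 lists, against 13.2% in the other coding genes. The 8 genes' sites had more reads, with a median of 98 in WT against 32 in the other coding genes.

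Agreement differed between the genes. SON had 38 of 83 union sites in all 3 lists, IRS4 39 of 96, SRRM2 29 of 85, SPEN 38 of 120, MKI67 36 of 118, TASOR2 19 of 65 and CENPF 20 of 80, while ANKRD11 had 7 of 75. Only 38.7% of the ANKRD11 WT sites were listed in KO1 and 32.3% in KO2, and its WT sites had the lowest median depth of the 8, at 44 reads. For sites with at least 10 substituted reads in WT the agreement was higher, with 97 of 110 listed in KO1 and 103 of 110 in KO2, against 91.3% and 95.2% in the other coding genes. Of 38 WT sites with only 2 substituted reads, 6 were listed in KO1 (15.8%) and 1 in KO2 (2.63%), against 12.8% and 14.6% in the other coding genes. Both KO lists lacked 5 of the 110 positions that had 10 or more substituted reads in WT. They were chr1:15930013 in SPEN (11 of 97 reads) and chrX:108732787 and chrX:108733873 in IRS4 (10 of 632 and 10 of 456). The others were chr21:33553434 in SON (10 of 283) and chr16:89280548 in ANKRD11 (10 of 139). The lists give no reads for positions that were not called, so a missing site has no measured share. In the other direction, 41 of the 722 positions of the 8 genes were in both KO lists and not in WT, 11 of them in ANKRD11 and 8 in SPEN. In the other coding genes 5249 of 74244 positions were.

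At the 226 shared sites the substituted share, the percentage of reads at a position that carry the substitution, was close in the 3 libraries. It is a measure of crosslinking and substitution in miCLIP, not the percentage of methylated transcripts. Pooled over the 8 genes it was 5.68% in WT (2824 of 49675 reads, 5.48 to 5.89%), 5.86% in KO1 (5.63 to 6.09%) and 5.81% in KO2 (5.62 to 6.00%). The intervals overlapped, and the other coding genes gave 6.63%, 6.57% and 6.42% at their 9781 shared sites. With 1 WT library no test of KO against WT was possible. A site had to be listed in all 3 libraries to enter these shares, so a site lost in any library cannot show.

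By gene, SPEN had pooled shares of 5.17%, 5.74% and 5.44% in WT, KO1 and KO2, and IRS4 had 5.06%, 4.95% and 5.19%. SON had 5.59%, 6.15% and 5.20%, with WT between the KO libraries. MKI67 had 8.45% (7.56 to 9.42%), 7.44% (6.52 to 8.45%) and 7.32% (6.60 to 8.09%), and TASOR2 had 7.39%, 6.24% and 6.54%, with WT the highest library in both genes. SRRM2 had 6.26% (5.60 to 6.97%), 7.62% (6.82 to 8.48%) and 7.32% (6.69 to 7.98%), with WT the lowest. CENPF had 6.21%, 5.92% and 7.27%, and ANKRD11 had 7.34%, 7.40% and 7.60% over its 7 shared sites. The WT interval overlapped both KO intervals in all 8 genes.

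**Figure D4:**
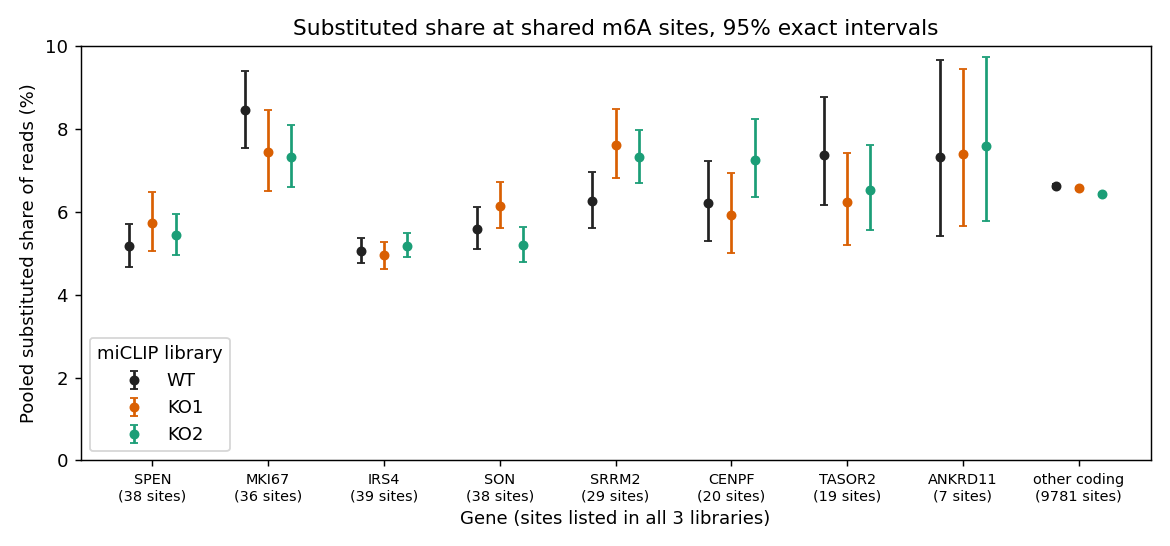
Pooled substituted share of reads (y axis, %, points) with 95% exact intervals (bars, counting error only) at the sites listed in all 3 libraries, for each gene and for the other coding genes (x axis). SPEN, IRS4 and SON lie at 4.95 to 6.15%, MKI67 at 7.32 to 8.45%, and the 3 libraries of each gene lie close together.

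Among the sites listed in all 3 libraries, single positions rarely differed beyond counting error. The intervals of WT and KO1 did not overlap at 2 of the 226 shared sites (0.885%), against 0.358% of the shared sites in the other coding genes, and those of WT and KO2 did not overlap at 1 site (0.442% against 0.491%). No shared site of the 8 genes had KO1 and KO2 apart. Both sites apart between WT and KO1 lay in SRRM2 and were higher in KO1. At chr16:2766710 the shares were 8.70% of 46 reads in WT, 39.3% of 28 in KO1 and 16.1% of 62 in KO2, and at chr16:2767335 they were 7.74%, 14.2% and 11.3%. The site apart between WT and KO2 was the ggAca site of MKI67 at chr10:128104676, with 22 of 89 reads in WT (24.7%, 16.2 to 35.0%), 7 of 62 in KO1 (11.3%, 4.66 to 21.9%) and 11 of 127 in KO2 (8.66%, 4.40 to 14.97%). At none of the 3 positions was the WT interval apart from both KO intervals. Across the 226 sites, which share genes, antibody and depth, Pearson's r of the shares was 0.62 between WT and KO1, 0.69 between WT and KO2 and 0.72 between KO1 and KO2, given as a description.

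The median share of a WT site was 6.03% in the 8 genes and 10.3% in the other coding genes. At positions with under 50 reads, which held 102 of the 459 WT sites of the 8 genes and 22239 of the 36030 of the other coding genes, the medians were 10% and 14.3%. At positions with 50 to 99 reads they were 6.21% and 6.25%, from 100 to under 200 reads 4.06% and 4.58%, and at 200 reads or more 3.85% and 3.62%. Under 50 reads the 8 genes were the lower also in the KO libraries, at 12% against 15.4% in KO1 and 10.5% against 15.2% in KO2. Depth was not matched within this bin. The median reads were 30 against 19 in WT, 30 against 18 in KO1 and 31 against 18 in KO2. A listed site needs at least 2 substituted reads, which is a larger share at fewer reads, so this bin does not compare shares at equal depth. At 50 to 99 reads the medians were 6.00% and 6.25% in KO1 and 5.49% and 6.32% in KO2.

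The letters around the adenosine differed from gene to gene. A GGAC core was found at 27.0% of the WT sites of the 8 genes (124 of 459), 29.9% in KO1 and 25.1% in KO2, against 34.3%, 34.6% and 34.6% in the other coding genes. ANKRD11 was above the other coding genes, with 17 of 31 WT sites (54.8%, 36.0 to 72.7%), 48.8% in KO1 and 55.6% in KO2. CENPF had 17.8%, 17.1% and 14.3% of its sites at a GGAC core, IRS4 17.4%, 24.1% and 20%, and MKI67 18.8%, 25.9% and 20.5%. In SRRM2 a GAAC core was the most common, at 39.6%, 36.2% and 42.2% of sites, and in TASOR2 it made up 32.4%, 33.3% and 40%, against 19.5%, 19.7% and 19.3% in the other coding genes. GGACT made up 19.3% of the WT sites of SON, where it was the motif of the array, and 1 of 80 WT sites of MKI67. In the other coding genes it made up 13.7% of WT sites, and GGACA made up 15.1%.

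PCIF1 acts at the first transcribed base, so the starts of the 8 genes were examined next. The authors' 2360 strict m6Am regions covered the start of 1 of the 8 genes, CENPF (chr1:214603151-214603300), with a score that ranked 1795th of 2360. The authors' deposited tables class the start of SON, IRS4 and SRRM2 as A without m6Am, that of SPEN as T and that of TASOR2 as G. MKI67, CENPF and ANKRD11 are in neither class table. RefSeq promoter windows are printed for SON and TASOR2, whose RefSeq start is at the middle base of the authors' start window, and for CENPF, with the annotated first base in capitals.
SON, chr21:33543023-33543052: gcctcctcccgaggcAtgctgggagcctgg
TASOR2, chr10:5684823-5684852: tggccgcgaggttttGcttccggttgctag
CENPF, chr1:214603180-214603209: agtttggttgagaccAgaagcgggcgaatt
The first base in RefSeq was the authors' class in SON and in TASOR2, and A in CENPF. The other 3 classed genes have different starts in RefSeq and in the authors' tables. The RefSeq start of SPEN lies 77 nt and that of IRS4 106 nt outside the authors' window, and that of SRRM2 lies inside it, at position 39 of 160. The RefSeq first base is A in SPEN (class T), G in SRRM2 (class A) and A in IRS4 (class A), so the classes of these 3 genes describe other start positions than the RefSeq ones used here for distances. Few m6A sites of the 8 genes lay near a start. Within 500 nt of the annotated start, IRS4 had 2 sites in all 3 lists and 1 in both KO lists. CENPF had 2 sites in KO1, at chr1:214603246 and chr1:214603280, with 2 of 17 and 2 of 16 substituted reads, both inside its m6Am region, and ANKRD11 had 1 site in KO1 with 2 of 13 reads. The other 5 genes had none.

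RNA levels were measured for the 5 genes whose identifier the files name, and those of MKI67, CENPF and ANKRD11 were not analysed here. The input counts are given as CPM, counts scaled to a common library total, after TMM scaling. SRRM2 was at 1404 and 1146 CPM in WT and at 1135, 1265 and 1145 CPM in KO. SON was at 604 and 436 CPM in WT and at 435, 479 and 446 CPM in KO. IRS4 was at 561 and 497 CPM in WT and at 439, 512 and 513 CPM in KO. SPEN was at 493 and 447 CPM in WT and at 403, 466 and 402 CPM in KO. In these 4 genes the groups overlapped, with WT replicate 1 the highest library. All 4 were among the most abundant in reads, above the 98.8th percentile of the 14629 genes tested, in reads not scaled by gene length. TASOR2 was at 56.8 and 62.4 CPM in WT and at 78.2, 75.5 and 66.6 CPM in KO, with all KO libraries above both WT libraries.

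None of the 5 genes passed edgeR's quasi-likelihood test of KO against WT in the input. The test called 5 of 14629 genes (0.0342%) at an adjusted p under 0.05, all lower in KO, and 9.3% had an unadjusted p under 0.05. TASOR2 had a log2 fold change of 0.30 ± 0.14 (SE), an unadjusted p of 0.0459 and an edgeR adjusted p of 0.533, and 24.2% of all genes had groups that did not overlap. SPEN had -0.15 ± 0.094, IRS4 -0.12 ± 0.096, SON -0.20 ± 0.12 and SRRM2 -0.11 ± 0.095, with edgeR adjusted p from 0.612 to 0.736. The SON value moved with the choice of WT library. Without WT replicate 1 the SON log2 fold change was 0.056 with an edgeR adjusted p of 0.997, and without WT replicate 2 it was -0.38 with an edgeR adjusted p of 0.000689. Each of these fits has 1 WT library, whose spread is assumed to be that of the KO libraries, so the p-values have no WT replicate behind them. The count of genes called over the whole input also moved, from 5 to 53 without WT replicate 1 to 1912 without WT replicate 2, and to 2, 8 and 3 without KO replicates 1, 2 and 3.

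Ribosome-protected fragments were listed for SPEN, IRS4, SON and SRRM2. SPEN had 10 and 20 fragments in the WT libraries and 90, 34 and 40 in KO, which are 537 and 324 CPM of the listed genes in WT and 701, 815 and 672 CPM in KO. All KO libraries were above both WT libraries, and WT replicate 1 was at 10 counts, the lowest WT count that the table lists. SON had 14 and 63 fragments in WT and 158, 48 and 68 in KO, or 752 and 1020 CPM against 1230, 1150 and 1143 CPM, again with KO above WT in every library. IRS4, at 1774 and 2120 CPM in WT and 2017, 1749 and 1967 CPM in KO, and SRRM2, at 2956 and 2574 CPM in WT and 2211, 2924 and 2168 CPM in KO, had overlapping groups. No gene of 785 was called (0%) by edgeR at an adjusted p under 0.05, 3.82% had an unadjusted p under 0.05, and 21% had groups that did not overlap. SPEN had a log2 fold change of 0.87 ± 0.35 (unadjusted p 0.0203, edgeR adjusted p 0.915), and SON had 0.36 ± 0.29 (edgeR adjusted p 0.925). DESeq2 also called 0 of these genes. The edgeR count of calls was 3 without WT replicate 2 and 1 without KO replicate 1 or 3, with none of the 4 genes past the threshold. The SPEN value was 0.43 without WT replicate 2 and 1.16 without WT replicate 1.

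Translational efficiency, the fragment level relative to the input level, was tested by asking whether the KO effect differed between fragment and input libraries (an interaction term). For the ratios below, input and fragment libraries were paired by number, and the labels do not say that they share a culture. Deviations of such pairs from their group means correlated at -0.065 in WT and at 0.061, 0.10 and 0.23 in KO. SPEN was at a log2 ratio of 0.12 and -0.46 in the WT pairs of libraries and at 0.80, 0.81 and 0.74 in the KO pairs. The edgeR interaction was 1.11 ± 0.31 for SPEN with an unadjusted p of 0.00266 and an edgeR adjusted p of 0.457. No gene of 785 passed (0%), and 7.13% had an unadjusted p under 0.05. SON had an interaction of 0.57 ± 0.27 (edgeR adjusted p 0.608). Its log2 ratios were 0.32 and 1.23 in WT and 1.501, 1.26 and 1.36 in KO, with the WT pair numbered 1 apart from the others. Without replicate 1 of both kinds the SON value was 0.11, and without replicate 2 it was 1.14 with an edgeR adjusted p of 0.0739. The SPEN value was 0.67 without replicate 2, with an edgeR adjusted p of 0.481, and 45 of the listed genes were called in that fit. IRS4 had 0.10 ± 0.21 and SRRM2 -0.032 ± 0.23. The authors' deposited table gives 1.08 for SPEN, 0.54 for SON, 0.069 for IRS4 and -0.063 for SRRM2 on the log2 scale. In the authors' deposited table SPEN ranked 4th highest of 765 genes with an adjusted p of 0.26, and 2 of 764 genes (0.262%) passed an adjusted p of 0.05. These values come from the same libraries and are not independent of the edgeR ones.

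**Figure D5:**
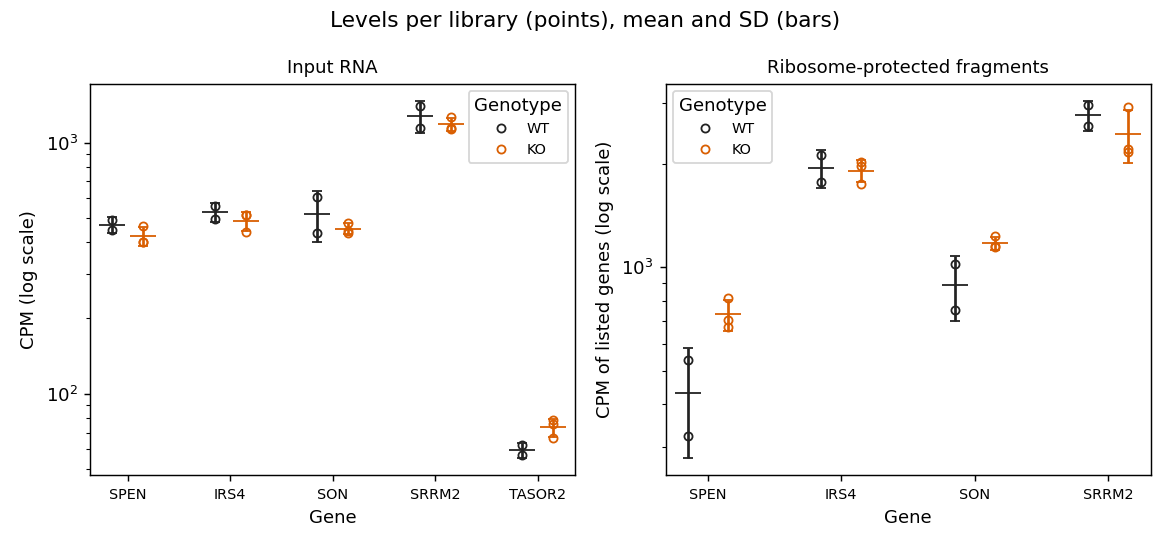
Level of each gene (x axis) in each library (open points), with the mean and SD (bars), in CPM on a log axis, for input RNA (left) and ribosome-protected fragments (right, CPM of the 785 listed genes); 2 WT and 3 KO libraries each. KO points of SPEN and SON lie above both WT points in the fragments, and those of TASOR2 in the input.

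Stability was given for TASOR2 alone. In the authors' deposited table from SLAM-seq, which follows the loss of 4-thiouridine label from RNA, TASOR2 (under its older symbol FAM208B) has a KO over WT ratio of 0.436. It ranked 56th lowest of 666 entries, the median of the table is 0.891, and that of the 221 entries with a G start is 0.877. The table gives 1 ratio per gene with no replicate, and the quantity that was divided is not stated.

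Genes of related function are described for their own counts, since the 8 genes were chosen for high ones. The share of all coding genes that have a WT site was not worked out. The numbers of genes with a site below therefore do not show whether these lists differ from coding genes at large. Among 12 genes of nuclear speckles and splicing, the surroundings of SON and SRRM2, 10 had a WT site, with a median of 5 and a maximum of 16 in THRAP3. Among 12 genes of mitotic chromosomes and kinetochores, 11 had a WT site, with a median of 7 and a maximum of 23 in ASPM, a spindle pole protein. Of 14 genes of the SPEN family, its corepressor partners and the HUSH complex, 13 had a WT site, and RBM15B, a SPEN family protein that is itself part of the m6A writer complex, was highest with 23, 14 and 23 sites. TASOR, the relative of TASOR2, had 15, 17 and 18. Of 10 genes of insulin signalling, all 10 had a WT site, IGF1R was highest with 20, and the insulin receptor substrates IRS1 and IRS2 had 2 and 5 against 69 in IRS4. Of the 48 genes in these lists, 8 could be matched in the input table, and none passed edgeR's test of KO against WT, with adjusted p from 0.513 to 0.931.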

How the data were processed

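Oligo-dT beads enriched mRNA before a strand-keeping kit was used for the input and miCLIP cloning for miCLIP and fragments, per the labels' protocols. BWA 0.7.17, STAR, bedtools and deepTools, with builds GRCh38, hg38 and mm10, stand in the submitters' processing notes; what each did is not given in the sources used here. Site lists as deposited give, per position called in each library, substituted and total read counts. The deposited input and fragment tables hold raw whole-number counts per gene, and all columns were matched to a sample (0 left over). The authors' efficiency table holds log2 fold changes, a mean signal, a test score and p-values with DESeq2's column names, per the file headers, and the authors' SLAM-seq table holds a KO over WT ratio. The score of the authors' m6Am regions was used only for a rank.

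A site was given to the 1 RefSeq gene whose span holds it. Counts were tested with edgeR 4.0.16 (TMM, robust quasi-likelihood F test, filterByExpr on the input, Benjamini-Hochberg over the whole table). SE is the fold change over the square root of F. DESeq2 1.42.0 was an alternative. On simulated counts with 200 genes changed 4-fold, the edgeR step recovered 100% in the input (14410 genes), with 2.91% of its calls false. In the fragments (785 genes) it recovered 100%, with 9.91% false. The changed genes were drawn from those above the median level, and all genes and libraries were given 1 fixed spread. This checks that the step runs as intended, and does not measure what it would find for smaller changes or in the real spread. Replicate libraries differed beyond sampling noise (chi-square over degrees of freedom 2.70 to 19.9). Analyses used R 4.3.3, Python 3.11.15, pandas 2.3.3, numpy 2.4.6, scipy 1.17.1 and matplotlib 3.10.9. The sites named per gene are the 3 with the most substituted reads in WT and the one with the highest share among those with at least 50 reads. The genes and lists were chosen with earlier results of these data known. The gene nearest in pattern to TASOR2 is not reported here.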

Additional observations from a re-analysis of the deposited data

How the results depend on the processing

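Counting only sites with at least 5 substituted reads lowered the counts in the 8 genes to 256 in WT, 215 in KO1 and 298 in KO2, and raised the median gap between neighbouring WT sites from 96.25 to 164.5 nt; by gene it moved most in TASOR2 (661 nt), ANKRD11 (702 nt), MKI67 (199 nt) and SPEN (130 nt). The union of the lists gave 79 nt in CENPF, 68 nt in TASOR2 and 99.5 nt in ANKRD11. The other site rules kept the counts within 1.5 times. The mean of the per-site shares was 6.92%, 7.21% and 6.88% in WT, KO1 and KO2, above the pooled values. All listed sites, shared or not, gave 5.44% in WT, 5.84% in KO1 and 5.38% in KO2. The input calls were 15 with DESeq2, 152 with no filter and 3 with the replicate block, and ranged from 2 to 1912 with 1 library left out. The fragment calls were 6 with the replicate block, with none of the 4 genes among them, and 0 to 3 with 1 library left out. The efficiency calls were 0 to 45 with 1 replicate number left out. With 1 library left out, the input log2 fold change ranged from -0.38 to 0.056 in SON and from -0.22 to 0.044 in SRRM2, that of the fragments from -0.14 to 0.11 in IRS4, and that of efficiency from -0.19 to 0.43 in IRS4 and from -0.11 to 0.0055 in SRRM2. For the single genes, 37 of 40 input values, 30 of 32 fragment values and 14 of 16 efficiency values kept their direction and side of the threshold. With a WT library left out, WT is 1 library assumed to vary like KO. The cause was not tested. The labels do not say that library numbers pair WT with KO, and deviations of same-numbered libraries correlated at 0.18 and -0.0039 in the input and 0.20 and 0.21 in the fragments. With 1 WT miCLIP library, and 10 to 63 fragments for SPEN and SON in WT, depth and replicate number limit the comparisons, and the lists hold no reads at positions that were not called.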
